A study of Mus musculus with 15 samples.

Results

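The solute carriers described here are the genes of the deposited table whose symbol begins with Slc, a family number, the letter a and a member number, and whose log2 expression value was 3 or more in at least 2 of the 15 libraries. The pattern matched 186 of the 12798 genes and the level rule kept 162. The members were thus chosen by their level over all 15 libraries, and that they are detected in these cells is not a finding. Of the 162, 158 are transporters. The other 4 only carry a transporter's name: Slc4a1ap, Slc7a6os, Slc9a3r1 and Slc9a3r2 encode proteins that bind, scaffold or neighbour a carrier. The last genes inside the level rule were Slc41a2, Slc30a4, Slc29a4 and Slc24a3, whose second highest library was at 3.0, 3.12, 3.17 and 3.19. The first outside were Slc1a4, Slc39a7, Slc45a3 and Slc39a1, at 2.98, 2.90, 2.90 and 2.84. Slc1a4, a neutral amino acid exchanger, was at 2.98 and 3.86 in EILP_KO, while all 3 EILP_WT libraries held it at their lowest value.

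Bulk RNA-seq was made from bone marrow progenitors of C57BL/6 mice, sorted as lineage-negative, Kit+ and 2B4+ cells. ALP, all-lymphoid progenitors (n = 3), were a4b7-, with high Flt3 and IL-7Ra on the surface, and carried the reporter genotype Tcf7EGFP/+. s-EILP.WT (n = 2) and c-EILP.WT (n = 3) were early innate lymphoid progenitors of Tcf7GFP Zbtb16GFP mice. Both were a4b7+, Tcf7+ and Thy1-. The s-EILP.WT gate took cells low for Zbtb16 and high for Flt3, and the c-EILP.WT gate took cells high for Zbtb16 and low for Flt3. EILP_KO (n = 2, Tcf7EGFPnull/-) and EILP_WT (n = 3, Tcf7EGFPnull/+) were sorted by the same a4b7, Tcf7 and Thy1 gate without the Zbtb16 and Flt3 split, so the EILP_WT mice carried 1 EGFPnull allele too. ILCP, the innate lymphoid cell (ILC) progenitors (n = 2, Tcf7EGFP/+), were a4b7+, Tcf7+, Thy1+ and IL-7Ra+. The reporter strain differs between s-EILP.WT and ALP, between ILCP and c-EILP.WT, and between EILP_WT and both ALP and ILCP, so these comparisons cannot tell the strain from the stage. The labels give no animal for a replicate and no age, and p-values measure the spread between these samples, which may be technical.

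Solute carriers are membrane proteins that move amino acids, sugars, metals, ions, vitamins and metabolites across the plasma membrane or an organelle membrane, usually by exchange or by coupling to an ion gradient. The numbers in a symbol group carriers by sequence family, and most families have a typical substrate. Developing and activated lymphocytes are known to change nutrient import, above all of amino acids through the CD98 heterodimers, of glucose and of lactate, when they begin to grow and divide. Carriers of the inner mitochondrial membrane, which form the SLC25 family, connect the metabolism of the matrix with that of the cytosol.

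All values are on the deposited log2 scale, and a difference of 1 is a doubling. The labels do not state the exact normalization or whether values were divided by gene length, so the levels of different genes are not ranked. Tcf7, the gene targeted in the null mice, was at 6.97 and 7.65 in EILP_KO and at 9.89, 10.81 and 11.14 in EILP_WT, a difference of -3.34 (SE 0.32, limma adjusted p = 0.00151). ILCP held Thy1 at 4.99 and 4.85 and Il7r at 10.58 and 10.84, while the Il7r values of EILP_KO were -1.30 and -0.99 and EILP_WT replicate 1 had Il7r at its lowest value. In each library 747 to 2575 genes share a lowest value, which lies between -4.83 and -4.41 depending on the library. Between 8 and 29 members per library had it. The number was highest in EILP_WT replicate 3, at 29, with 27 and 26 in ILCP and 27 and 22 in EILP_KO. No read counts were used and the depth of each library is unknown, so no detection limit can be given. No fold is given for a gene that all libraries of a group hold at this value.

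The members spanned a wide range of levels. Of the 162, 70 were at 3 or more in all 15 libraries, 68 in 6 to 14 libraries and 24 in 2 to 5 libraries. Only 2 members passed the level rule through a single group, Slc16a11, an orphan monocarboxylate family member, through ALP and Slc29a4, a monoamine transporter, through c-EILP.WT. The median member lay between 4.65 and 5.20 in every library. By substrate, the members fall into 36 mitochondrial carriers, 23 carriers of amino acids and peptides, 23 of inorganic ions, 22 of metals, 14 of sugars, 13 of vitamins and lipids, 10 of monocarboxylates and related acids, 7 of organic ions and others, 5 of nucleosides and 5 of nucleotide sugars, beside the 4 that are no carriers. The 12 members picked for naming by their mean value, which is no ranking per length, are in alphabetical order Slc25a12, Slc25a3, Slc25a39, Slc25a5, Slc30a5, Slc35a4, Slc38a1, Slc38a10, Slc38a2, Slc39a6, Slc44a2 and Slc9a3r1. Slc25a5, the adenine nucleotide translocator that exchanges ADP for ATP, lay between 9.66 and 10.62 in all 15 libraries. Its near-identical relative Slc25a4 lay between 7.06 and 8.08, and how reads were shared between the pair is uncertain.

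A member is called changed where its limma adjusted p, over all 12572 genes tested, was under 0.05. Between ILCP and EILP_WT 10 of the 162 members changed, 2 higher and 8 lower in ILCP. That is 6.17% of the members beside 6.95% of all genes tested, of which 2.61% rose and 4.34% fell. ILCP against c-EILP.WT gave 9, 1 higher and 8 lower, or 5.56% beside 7.41%, of which 2.69% rose and 4.72% fell. EILP_WT against ALP gave 4, 2 higher and 2 lower, or 2.47% beside 3.21%, of which 1.71% rose and 1.5% fell. s-EILP.WT against ALP gave 1, which was higher, or 0.617% beside 0.803%, of which 0.493% rose and 0.31% fell. EILP_KO against EILP_WT gave 0 by limma, beside 0.103% of all genes, with 10 members (6.17%) at an unadjusted p under 0.05 beside 8.7% of all genes. With a level threshold of 2 in place of 3, an alternative chosen after seeing the data, this count was 1, Slc1a4 (limma adjusted p = 0.0366). Slc1a4 meets that threshold through its EILP_KO libraries, the group where it is high, so this count is no support for a change. c-EILP.WT against s-EILP.WT gave 0 by limma, beside 0% of all genes, with 8 members (4.94%) at an unadjusted p under 0.05 beside 5.15%. In the F test over the 6 groups 13 members passed, 8.02% beside 8.36%. The members' shares lay near those of all genes tested, so these counts are no result about solute carriers as a group. Single libraries moved them. Without ALP replicate 1 or EILP_WT replicate 2 the count for EILP_WT against ALP was 1, and without ALP replicate 2, ALP replicate 3 or EILP_WT replicate 3 it was 2. The count for s-EILP.WT against ALP was 0 without ALP replicate 1, ALP replicate 2 or either s-EILP.WT library. Without ILCP replicate 1, ILCP against c-EILP.WT gave 16. The F test gave 8 without ALP replicate 2, ALP replicate 3 or c-EILP.WT replicate 2.

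**Figure D1:**
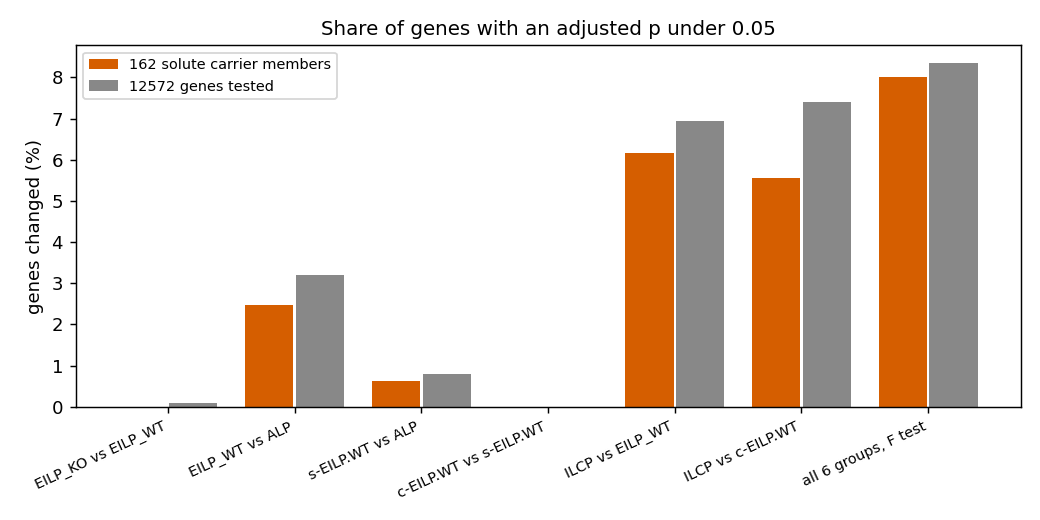
Percentage of the 162 members (orange) and of the 12572 genes tested (grey) with a limma adjusted p under 0.05, in each comparison and in the F test over the 6 groups. Both bars lie close together throughout, at 6.17% and 6.95% for ILCP against EILP_WT.

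The median log2 difference of the members was -0.07 between ILCP and EILP_WT and -0.05 between ILCP and c-EILP.WT, beside -0.06 and -0.07 over all genes tested. It was -0.04 between EILP_WT and ALP and 0.07 between s-EILP.WT and ALP, beside -0.01 and 0.01. For EILP_KO against EILP_WT it was -0.02, beside 0.04. For c-EILP.WT against s-EILP.WT it was -0.11, beside -0.02. By substrate class, the falls in ILCP against EILP_WT came from 3 of the 36 mitochondrial carriers, 2 of the 22 metal carriers, and 1 each of the amino acid, inorganic ion and organic ion carriers, and both rises from the 23 inorganic ion carriers by family number. None of the 14 sugar, 13 vitamin and lipid, 10 monocarboxylate, 5 nucleoside or 5 nucleotide sugar carriers passed in that comparison. Of all genes tested, 4.34% fell and 2.61% rose there, and the calls per class are too few to read as a substrate pattern.

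**Figure D2:**
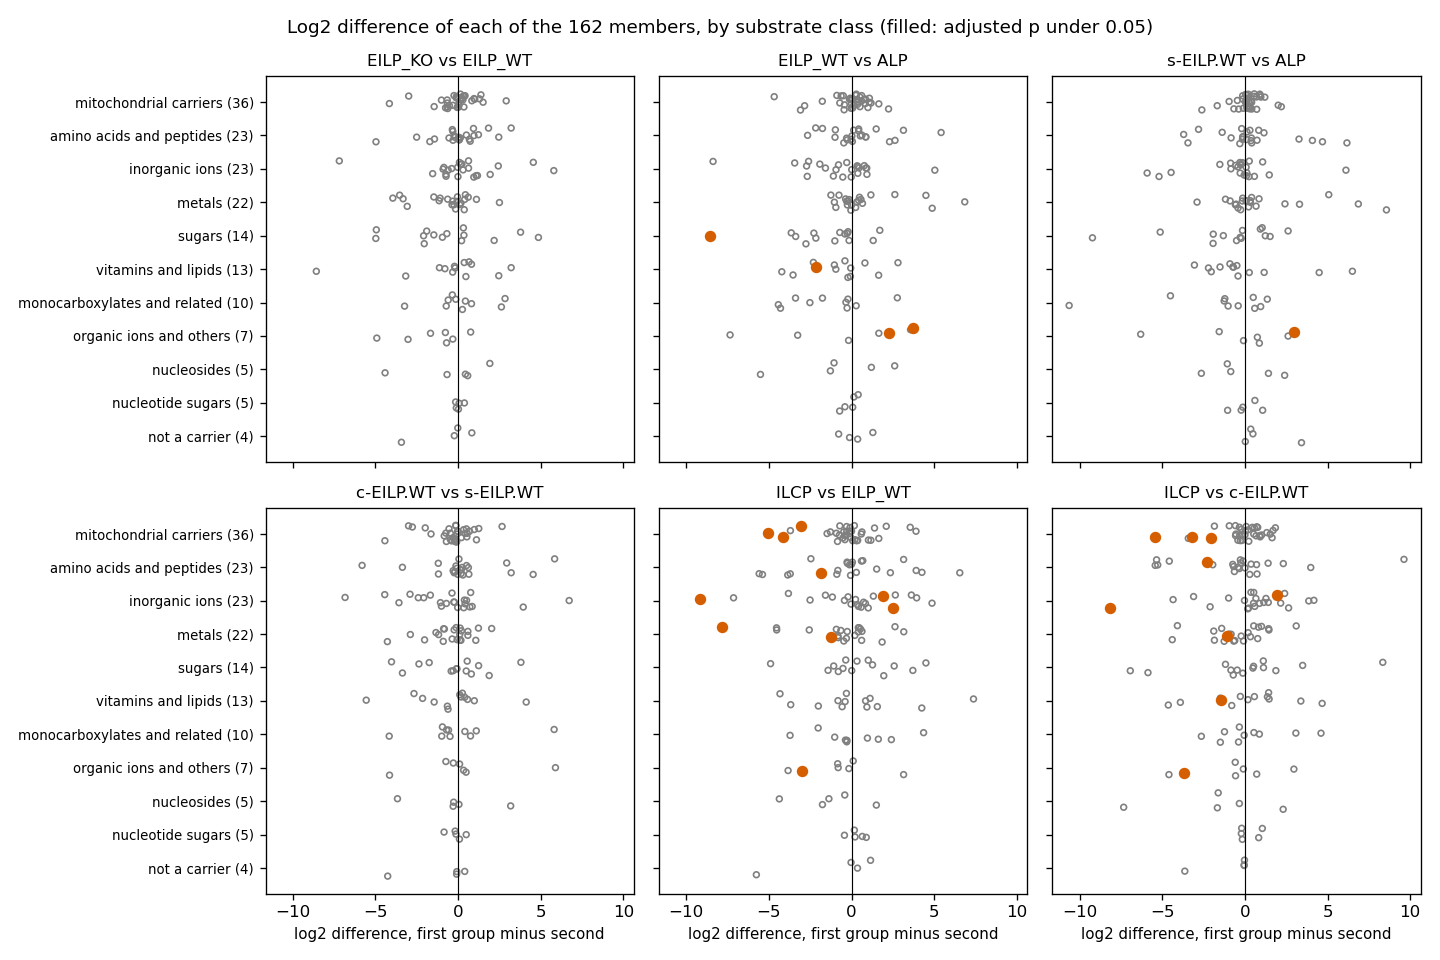
Log2 difference, first group minus second, of each of the 162 members in 6 comparisons, by substrate class with the number of members in parentheses. Each point is a gene, filled where the limma adjusted p was under 0.05; the filled points are 10 in ILCP against EILP_WT, 9 in ILCP against c-EILP.WT, 4 in EILP_WT against ALP and 1 in s-EILP.WT against ALP.

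Among the mitochondrial carriers, both aspartate/glutamate carriers were lower in ILCP. Slc25a12 (aralar) and Slc25a13 (citrin) carry glutamate into the matrix in exchange for aspartate, a step of the malate-aspartate shuttle that passes reducing equivalents from the cytosol to the respiratory chain. Slc25a12 lies at chr2:71271063-71367749 on the minus strand and Slc25a13 at chr6:6041218-6217173, also on the minus strand. Their promoters, the 250 bases before the start from RefSeq on GRCm38.p6, are shown because both genes fell in ILCP; capitals mark CACGTG, the E-box that MYC family proteins are known to bind. The first region is chr2:71367756-71368005 and the second chr6:6217174-6217423.

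Slc25a12: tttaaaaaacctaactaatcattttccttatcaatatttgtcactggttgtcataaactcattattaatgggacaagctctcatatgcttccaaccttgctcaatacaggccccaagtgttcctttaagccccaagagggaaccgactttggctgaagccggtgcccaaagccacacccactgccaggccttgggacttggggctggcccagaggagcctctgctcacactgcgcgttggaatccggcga

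Slc25a13: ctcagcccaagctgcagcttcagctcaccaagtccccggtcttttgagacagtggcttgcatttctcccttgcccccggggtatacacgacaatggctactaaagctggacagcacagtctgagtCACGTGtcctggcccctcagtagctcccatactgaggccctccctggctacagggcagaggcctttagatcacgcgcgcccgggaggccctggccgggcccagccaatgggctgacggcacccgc

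CACGTG was found once in the Slc25a13 stretch and not in that of Slc25a12. Searched on both strands, it occurred in 6.02% of all 32851 promoters of this length in the table and in 13.5% of 163 promoters of 120 members that matched by symbol. Another motif, TGATGNAA of the amino acid response, occurred in 3.45% of all promoters and 2.45% of the member promoters, and in none of the stretches printed here. The sets compared are unlike, because the members were kept for their level and the full set of promoters was not. The 163 promoters of 120 members count some genes repeatedly, as with the overlapping promoters of Slc7a6, and leave out members without a match. The difference in shares was not tested, so it is not read as an enrichment of any motif in solute carriers. A match is a stretch of letters and no evidence of binding.

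Slc25a12 was at 5.55 and 6.11 in ILCP, against 9.12, 8.98 and 8.54 in EILP_WT and 7.51, 8.16 and 8.06 in c-EILP.WT. Both ILCP libraries lay below the other 13. The difference was -3.04 from EILP_WT (SE 0.26, 8.21-fold lower, limma adjusted p = 4.02e-05) and -2.07 from c-EILP.WT (SE 0.26, 4.19-fold lower, adjusted p = 0.000559). In bulk RNA, fewer cells that express a gene and less RNA per cell cannot be told apart. Slc25a13 was at 3.45 and 1.25 in ILCP, against 6.84, 6.75 and 6.08 in EILP_WT and 4.80, 6.37 and 5.55 in c-EILP.WT. Again every other library lay higher, the nearest being ALP replicate 1 at 3.77. It was 18-fold lower in ILCP than in EILP_WT (log2 difference -4.17, SE 0.85, limma adjusted p = 0.0122) and 9.07-fold lower than in c-EILP.WT (-3.18, SE 0.85, adjusted p = 0.0426). Without ILCP replicate 2 neither call held, with differences of -3.06 (adjusted p = 0.102) and -2.07 (adjusted p = 0.277). The call against c-EILP.WT was also lost without c-EILP.WT replicate 2 or 3 (adjusted p = 0.124 and 0.125).

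The other shuttle carrier, Slc25a11, which exchanges malate for 2-oxoglutarate, was at 7.75 and 7.64 in ILCP, against 7.52, 7.51 and 7.65 in EILP_WT. The values overlap, and the gene did not pass. Slc25a32, a mitochondrial carrier of folate and flavin adenine dinucleotide, was at its lowest value in ILCP replicate 1 and at 2.40 in ILCP replicate 2, against 3.20, 4.11 and 3.67 in EILP_WT and 4.30, 3.16 and 4.72 in c-EILP.WT. It passed in both comparisons (-5.03, SE 1.38, limma adjusted p = 0.0488 and -5.42, SE 1.38, adjusted p = 0.0352). Without ILCP replicate 1 the differences were -1.72 (adjusted p = 0.4) and -2.12 (adjusted p = 0.3), so the size rests on that library. The calls were also lost without any EILP_WT library (adjusted p 0.0504 to 0.112) or any c-EILP.WT library (0.0769 to 0.101).

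Slc25a24, a calcium-regulated exchanger of ATP-magnesium for phosphate, was at 2.70 and 4.54 in EILP_KO, against 6.41, 6.00 and 6.69 in EILP_WT. The groups did not overlap, and the difference of -2.99 (SE 0.65) did not pass (limma adjusted p = 0.19). The gene passed the F test over the 6 groups (adjusted p = 0.0398). The phosphate carrier Slc25a3 stayed between 7.89 and 8.46 over all 15 libraries, and the citrate carrier Slc25a1 between 6.38 and 7.51. Slc25a20, the carnitine/acylcarnitine carrier, was at 6.60 and 6.44 in ILCP, against 5.07, 6.87 and 5.88 in EILP_WT. Slc25a37, mitoferrin-1, which brings iron to the matrix, spanned 1.38 to 5.16 without a change in any comparison.

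Among the 23 amino acid and peptide carriers, the CD98 light chain Slc7a6 fell in ILCP. Slc3a2 encodes the CD98 heavy chain, which pairs with light chains such as Slc7a5 (LAT1, large neutral amino acids), Slc7a6 (y+LAT2), Slc7a7 (y+LAT1) and Slc7a8 (LAT2). Slc7a6 was at 4.24 and 4.28 in ILCP, against 6.08, 5.82 and 6.33 in EILP_WT and 6.61, 6.78 and 6.27 in c-EILP.WT. Both ILCP libraries lay below the other 13. The difference was -1.83 from EILP_WT (SE 0.28, 3.55-fold lower, limma adjusted p = 0.00203) and -2.31 from c-EILP.WT (SE 0.28, 4.95-fold lower, adjusted p = 0.000446). Slc7a5 was at 6.49 and 6.40 in ILCP, against 7.83, 7.35 and 6.74 in EILP_WT and 6.87, 7.21 and 7.43 in c-EILP.WT. Its 2 ILCP libraries were also below all others, and the differences of -0.83 (adjusted p = 0.0978) and -0.69 (adjusted p = 0.167) did not pass.

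Slc7a8 went the other way in its values. It was at 7.65 and 7.83 in ILCP, against 3.54, 4.49 and the lowest value in EILP_WT and against 4.01 in c-EILP.WT replicate 3, with the other c-EILP.WT libraries at the lowest value. Every library outside ILCP lay at 4.49 or below, but neither difference passed by limma. It was 6.55 from EILP_WT (SE 3.53, adjusted p = 0.307) and 9.62 from c-EILP.WT (SE 3.53, adjusted p = 0.127). The heavy chain Slc3a2 was at 7.08 and 7.88 in ILCP, against 7.50, 7.65 and 7.43 in EILP_WT, within the range of the other groups. Slc7a7 was at 4.23 and 3.90 in EILP_KO, against 4.29, 3.76 and the lowest value in EILP_WT.

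**Figure D3:**
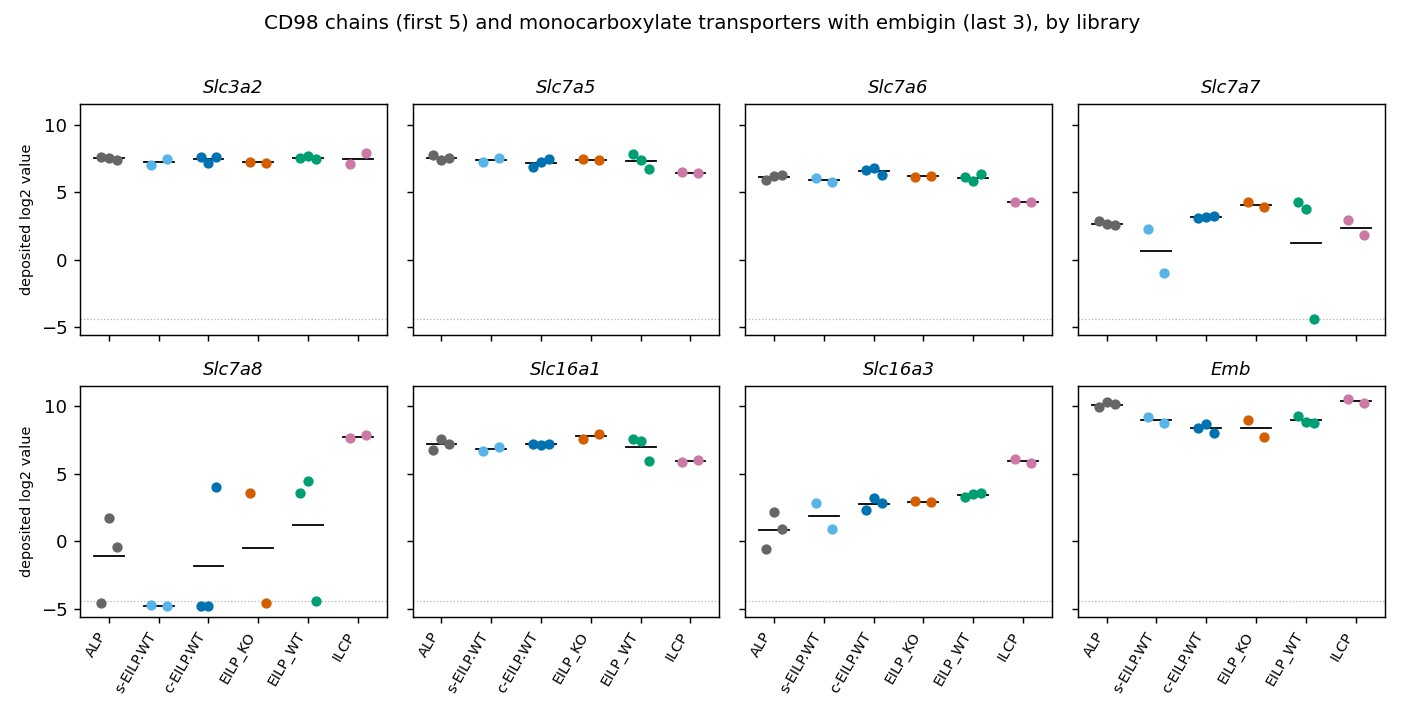
Deposited log2 values (vertical axis) of the CD98 heavy chain Slc3a2, its light chains Slc7a5, Slc7a6, Slc7a7 and Slc7a8, the lactate carriers Slc16a1 and Slc16a3 and their chaperone Emb in the 6 groups; each point is a library, the bar the group mean and the dotted line the highest of the libraries' lowest values. Slc7a6 lies lower in ILCP (4.24 and 4.28), and Slc7a8 (7.65 and 7.83) and Slc16a3 (6.10 and 5.77) lie higher there.

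The glutamine carriers gave no call in any comparison. Slc38a1, a sodium-coupled importer of glutamine, spanned 7.88 to 8.88, Slc38a2, its relative, spanned 7.98 to 9.11 and Slc1a5, the exchanger of glutamine for other neutral amino acids, spanned 6.52 to 7.98 over the 15 libraries. Without passing, Slc38a2 was lower in ILCP than in c-EILP.WT with no overlap (-0.64, limma adjusted p = 0.0732). Slc38a1 was higher in s-EILP.WT than in ALP with no overlap (0.73, adjusted p = 0.299). The cationic amino acid carrier Slc7a1 was at 6.35, 3.83 and 5.34 in ALP and between 4.48 and 5.75 in the other groups. Slc38a9, a lysosomal arginine sensor of the mTORC1 pathway, was at 4.76 and 5.45 in ILCP, against 3.80, -2.99 and 4.86 in EILP_WT. Slc15a1, an intestinal peptide transporter, was at 3.82 and 5.44 in ILCP, above every other library, and at the lowest value in the EILP_KO, s-EILP.WT and ALP libraries, and it passed the F test (limma adjusted p = 0.0482).

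The lactate carriers showed opposite values without a call. Slc16a1 (MCT1) was at 5.87 and 6.00 in ILCP, against 7.54, 7.39 and 5.96 in EILP_WT and 7.19, 7.14 and 7.23 in c-EILP.WT. The groups overlapped with EILP_WT through EILP_WT replicate 3, and the difference from c-EILP.WT was -1.24 (limma adjusted p = 0.0912). Slc16a3 (MCT4), best known from glycolytic cells that release lactate, was at 6.10 and 5.77 in ILCP, against 3.29, 3.49 and 3.58 in EILP_WT and 2.33, 3.16 and 2.85 in c-EILP.WT. No library outside ILCP exceeded 3.58, yet the differences of 2.41 (adjusted p = 0.176) and 3.08 (adjusted p = 0.0859) did not pass. Emb, embigin, a chaperone of monocarboxylate carriers, was at 10.49 and 10.25 in ILCP, against 9.23, 8.83 and 8.78 in EILP_WT, and rose by 1.48 (SE 0.27, adjusted p = 0.00708).

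Of the sugar carriers, Slc2a1 (GLUT1) was at 1.46 and 4.14 in EILP_KO, against 5.01, 3.93 and 5.43 in EILP_WT. The groups overlapped, and the difference of -2.09 did not pass (limma adjusted p = 0.512). Slc2a3 (GLUT3) spanned 4.38 to 7.04 over all libraries, with ILCP replicate 2 the highest and EILP_WT replicate 3 the lowest. Slc37a2, which exchanges glucose 6-phosphate for phosphate in the endoplasmic reticulum, was at the lowest value in all 3 EILP_WT libraries, against 3.76, 4.67 and 1.77 in ALP, and it fell (limma adjusted p = 0.0302). It was also at the lowest value in s-EILP.WT, c-EILP.WT and ILCP and in EILP_KO replicate 2, while EILP_KO replicate 1 held 4.56. The call was lost without any single one of the 6 libraries compared, with adjusted p between 0.053 and 0.0981.

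2 carriers of monoamines were higher in EILP_WT than in ALP. Slc18a2 (VMAT2) loads histamine, serotonin and other monoamines into vesicles, and Slc22a3 (OCT3) carries them across the plasma membrane. Slc18a2 lies at chr19:59260896-59296012 on the plus strand and Slc22a3 at chr17:12418960-12507704 on the minus strand. Their promoters on GRCm38.p6 from RefSeq, chr19:59260628-59260877 and chr17:12507705-12507954, are shown because both genes rose in EILP_WT; capitals mark CTTTGA, the core that TCF and LEF factors are known to recognise.

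Slc18a2: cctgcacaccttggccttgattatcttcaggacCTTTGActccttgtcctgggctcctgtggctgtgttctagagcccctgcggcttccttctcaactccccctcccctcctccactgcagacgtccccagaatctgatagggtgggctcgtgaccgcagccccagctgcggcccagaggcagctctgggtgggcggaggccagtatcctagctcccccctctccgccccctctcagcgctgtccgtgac

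Slc22a3: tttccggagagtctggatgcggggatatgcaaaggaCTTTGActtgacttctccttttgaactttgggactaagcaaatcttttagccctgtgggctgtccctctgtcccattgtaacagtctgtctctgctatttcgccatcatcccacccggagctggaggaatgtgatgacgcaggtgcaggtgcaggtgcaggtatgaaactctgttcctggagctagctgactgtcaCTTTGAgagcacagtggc

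CTTTGA was found 1 time in the first and 2 times in the second. On either strand it occurred in 13.8% of all 32851 promoters and in 14.7% of the 163 member promoters. These are the same unlike sets as above and the shares were not tested against each other. A match does not show a binding site.

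Slc18a2 was at 5.67, 7.23 and 5.54 in EILP_WT, against 2.73, 1.76 and 2.17 in ALP. All 3 ALP libraries lay below the other 12. It rose 13-fold (log2 difference 3.71, SE 0.50, limma adjusted p = 0.00191). In s-EILP.WT it was at 5.23 and 6.02, and it rose 7.81-fold against ALP (2.97, SE 0.59, adjusted p = 0.0426), a call that was lost without any 1 of the 5 libraries compared (adjusted p 0.0629 to 0.356). EILP_KO held 5.39 and 6.04, inside the EILP_WT range, and ILCP 5.88 and 4.51.

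Slc22a3 was at 6.52, 6.21 and 6.82 in EILP_WT, against 4.30, 3.17 and 5.61 in ALP. The groups did not overlap, and it rose 4.77-fold (2.26, SE 0.51, limma adjusted p = 0.035). In ILCP it was back at 3.35 and 3.76, against 6.71, 7.67 and 7.23 in c-EILP.WT. It fell 8.05-fold in ILCP against EILP_WT (-3.01, SE 0.56, adjusted p = 0.0072) and 13-fold against c-EILP.WT (-3.70, SE 0.56, adjusted p = 0.002). The rise against ALP was lost without ALP replicate 1 or any EILP_WT library, with adjusted p between 0.0684 and 0.151. EILP_KO held 5.55 and 6.18.

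Both genes are known from mast cells and basophils, and 1 of their markers, Cpa3, rose in EILP_WT against ALP as well. Of 6 mast cell and basophil markers 5 were measured, and the other 4 did not pass in that comparison. The summed level of the 5, on a linear scale with the lowest value as 0, was 13.3 to 36.2 in ALP. It was 1094 to 1133 in s-EILP.WT, 1126 to 1514 in c-EILP.WT, 404 to 518 in EILP_KO, 581 to 819 in EILP_WT and 89.9 to 331 in ILCP. Cpa3 made up most of the sum in every EILP library, so there the sum largely repeats that gene. Ms4a2 was at the lowest value in s-EILP.WT and Hdc in EILP_WT. Cpa3 was at 9.07, 9.55 and 9.25 in EILP_WT, against 2.06, 1.76 and 3.49 in ALP, and rose by 6.81 (limma adjusted p = 2.03e-06). Cpa3 fell by 2.66 in ILCP against EILP_WT (adjusted p = 0.00268), where Slc22a3 fell and Slc18a2, at 5.88 and 4.51 in ILCP, did not pass. The part of such cells in the 2 carriers' values was not tested. Exons of Slc18a2 overlap the antisense gene Gm29261 over 2.12% of their length, and exons of Slc22a3 overlap Plg on the opposite strand over 9.31%. The labels do not say that counting used the strand, so reads of such pairs cannot be told apart.

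**Figure D4:**
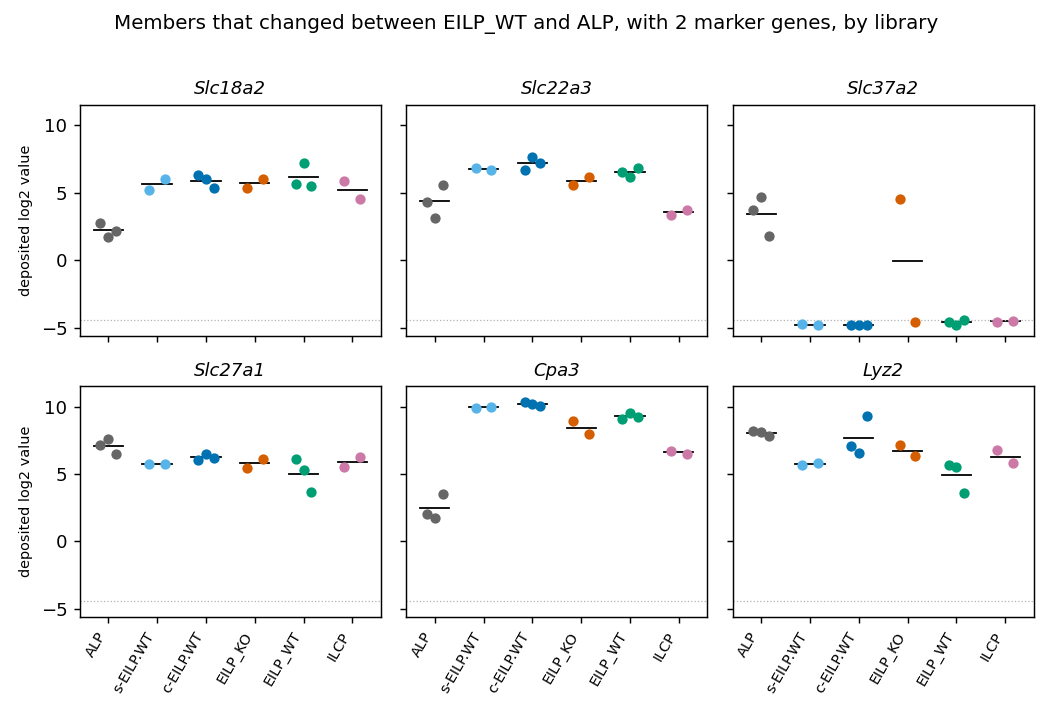
Deposited log2 values (vertical axis) of the 4 members that changed between EILP_WT and ALP and of the marker genes Cpa3 (mast cell) and Lyz2 (myeloid) in the 6 groups; each point is a library, the bar the group mean and the dotted line the highest of the libraries' lowest values. Slc18a2 lies between 1.76 and 2.73 in ALP and Slc37a2 lies at the lowest value in all but 4 libraries.

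Among lipid and vitamin carriers, Slc27a1 (FATP1), a long-chain fatty acid importer, was at 6.08, 5.31 and 3.69 in EILP_WT, against 7.18, 7.57 and 6.46 in ALP. No library overlapped, and it fell 4.4-fold (-2.14, SE 0.53, limma adjusted p = 0.0492). Without EILP_WT replicate 3 the difference was -1.23 (adjusted p = 0.232), and the call was also lost without EILP_WT replicate 2 or any ALP library (adjusted p 0.0659 to 0.16). The myeloid marker Lyz2 was at 5.67, 5.48 and 3.62 in EILP_WT, against 8.22, 8.08 and 7.84 in ALP. The myeloid markers Fcgr3 and Cebpa went the other way with no overlap. Fcgr3 was at 3.53 or more in EILP_WT and at 2.57 or less in ALP. Cebpa was at 3.84 or more in EILP_WT and at 3.40 or less in ALP. Summed over all 8 myeloid markers the level was 539 to 4014 in EILP_WT and 1086 to 2196 in ALP, and their part in the result was not tested. Slc19a1, the reduced folate carrier, was at 5.75 and 5.11 in ILCP, against 7.10, 6.75 and 6.82 in c-EILP.WT, and below every other library. It fell 2.76-fold (-1.46, SE 0.29, limma adjusted p = 0.0106), a call lost without ILCP replicate 2 (-1.07, adjusted p = 0.0825). Slc44a2, a choline transporter-like protein, was at 8.22, 8.68 and 7.82 in c-EILP.WT, against 9.27 and 8.87 in s-EILP.WT (-0.61, adjusted p = 0.821). It passed the F test over the 6 groups (adjusted p = 0.0429).

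Of the 22 metal carriers 2 fell in ILCP against EILP_WT and 1 against c-EILP.WT, where 4.34% and 4.72% of all genes fell. Slc30a5 (ZnT5) moves zinc into the Golgi, where it loads secreted enzymes. It was at 7.08 and 5.78 in ILCP, against 7.87, 8.01 and 7.36 in EILP_WT and 7.62, 7.61 and 7.47 in c-EILP.WT. Both ILCP libraries lay below all others, ILCP replicate 2 by the larger margin. The difference was -1.24 from EILP_WT (SE 0.26, limma adjusted p = 0.0139) and -1.06 from c-EILP.WT (SE 0.26, adjusted p = 0.0308). Without ILCP replicate 2 they were -0.74 (adjusted p = 0.108) and -0.56 (adjusted p = 0.223), and the call against c-EILP.WT was also lost without any c-EILP.WT library (adjusted p 0.0602 to 0.116). Slc31a2, a copper transporter homologue of endosomes, was at the lowest value in both ILCP libraries, against 3.63, 3.10 and 3.56 in EILP_WT, and it fell (limma adjusted p = 0.00453). Against c-EILP.WT at 2.30, -0.90 and -1.48 it did not pass (adjusted p = 0.0722). The copper importer Slc31a1 was at 4.82 and 4.64 in ILCP, against 5.72, 6.35 and 6.56 in c-EILP.WT (-1.41, adjusted p = 0.0735). Slc11a2 (DMT1), an iron importer, was at 6.37 and 7.39 in ILCP, against 3.42, 5.65 and 5.49 in EILP_WT (1.85, adjusted p = 0.122). Slc40a1, ferroportin, the iron exporter, spanned the lowest value to 5.69 and passed nowhere.

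The families grouped as inorganic ion carriers gave the 2 rises in ILCP. Slc9a9 (NHE9) exchanges sodium or potassium for protons in endosomes. It was at 8.95 and 8.62 in ILCP, against 6.88, 6.77 and 6.98 in EILP_WT and 6.69, 7.22 and 6.64 in c-EILP.WT. No library outside ILCP exceeded 7.22. It rose 3.76-fold against EILP_WT (1.91, SE 0.22, limma adjusted p = 0.000335) and 3.84-fold against c-EILP.WT (1.94, SE 0.22, adjusted p = 0.000339). Slc17a5, sialin, exports sialic acid from lysosomes. It was at 5.91 and 6.62 in ILCP, against 3.51, 2.75 and 4.84 in EILP_WT, and rose 5.58-fold (2.48, SE 0.56, adjusted p = 0.0207), a call lost without either ILCP library (adjusted p 0.0775 and 0.1). In c-EILP.WT it was at 5.30, 5.44 and 5.17.

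Slc4a8, a sodium-driven exchanger of chloride for bicarbonate that is best known from neurons, was at the lowest value in both ILCP libraries, against 4.48, 4.66 and 4.92 in EILP_WT and 2.59, 5.23 and 3.28 in c-EILP.WT. No other library lay below 2.59. It fell against EILP_WT (limma adjusted p = 0.000233) and against c-EILP.WT (adjusted p = 0.000518). Slc26a11, a lysosomal sulfate transporter, had no value above the lowest in EILP_KO or ILCP, against 4.71, -0.47 and 4.18 in EILP_WT. Neither difference passed (adjusted p = 0.409 for EILP_KO and 0.0741 for ILCP), and the gene passed the F test over the 6 groups (adjusted p = 0.0495).

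Markers of other cells also differed between ILCP and EILP_WT. All 4 dendritic cell markers were measured and summed to 52 to 154 in ILCP, with Siglech and Itgax at the lowest value, against 689 to 1720 in EILP_WT, where Siglech was also at the lowest value, and 217 to 866 in c-EILP.WT, where Itgax was. Irf8 made up most of each of these sums, so they largely repeat that gene. It fell in ILCP against EILP_WT (-3.65, limma adjusted p = 7.69e-05) and against c-EILP.WT (-2.30, adjusted p = 0.0019). Batf3 went the other way and rose in ILCP against c-EILP.WT (5.66, adjusted p = 0.0422). The 8 myeloid markers summed to 169 to 935 in ILCP, against 539 to 4014 in EILP_WT and 1274 to 2556 in c-EILP.WT. Mpo made up most of the sums in EILP_WT and c-EILP.WT. Lyz2 went the other way, at 6.75 and 5.83 in ILCP, against 5.67, 5.48 and 3.62 in EILP_WT. The 4 measured T cell markers of 5 summed to 55.6 to 58.5 in ILCP, against 0 to 51.9 in EILP_WT. Itga2b, a gene of megakaryocytes and platelets, was at the lowest value in both ILCP libraries, against 6.37, 5.49 and 6.06 in EILP_WT (limma adjusted p = 0.00296). It rose in EILP_WT against ALP (adjusted p = 0.0114). The 3 measured megakaryocyte markers of 4 summed to 3.13 to 9.74 in ILCP, 45.1 to 82.6 in EILP_WT and 0 to 15.1 in ALP. Of these, Pf4 went the other way, at 3.28 and 1.65 in ILCP, against the lowest value in EILP_WT. The part of all these markers in the members' differences was not tested.

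**Figure D5:**
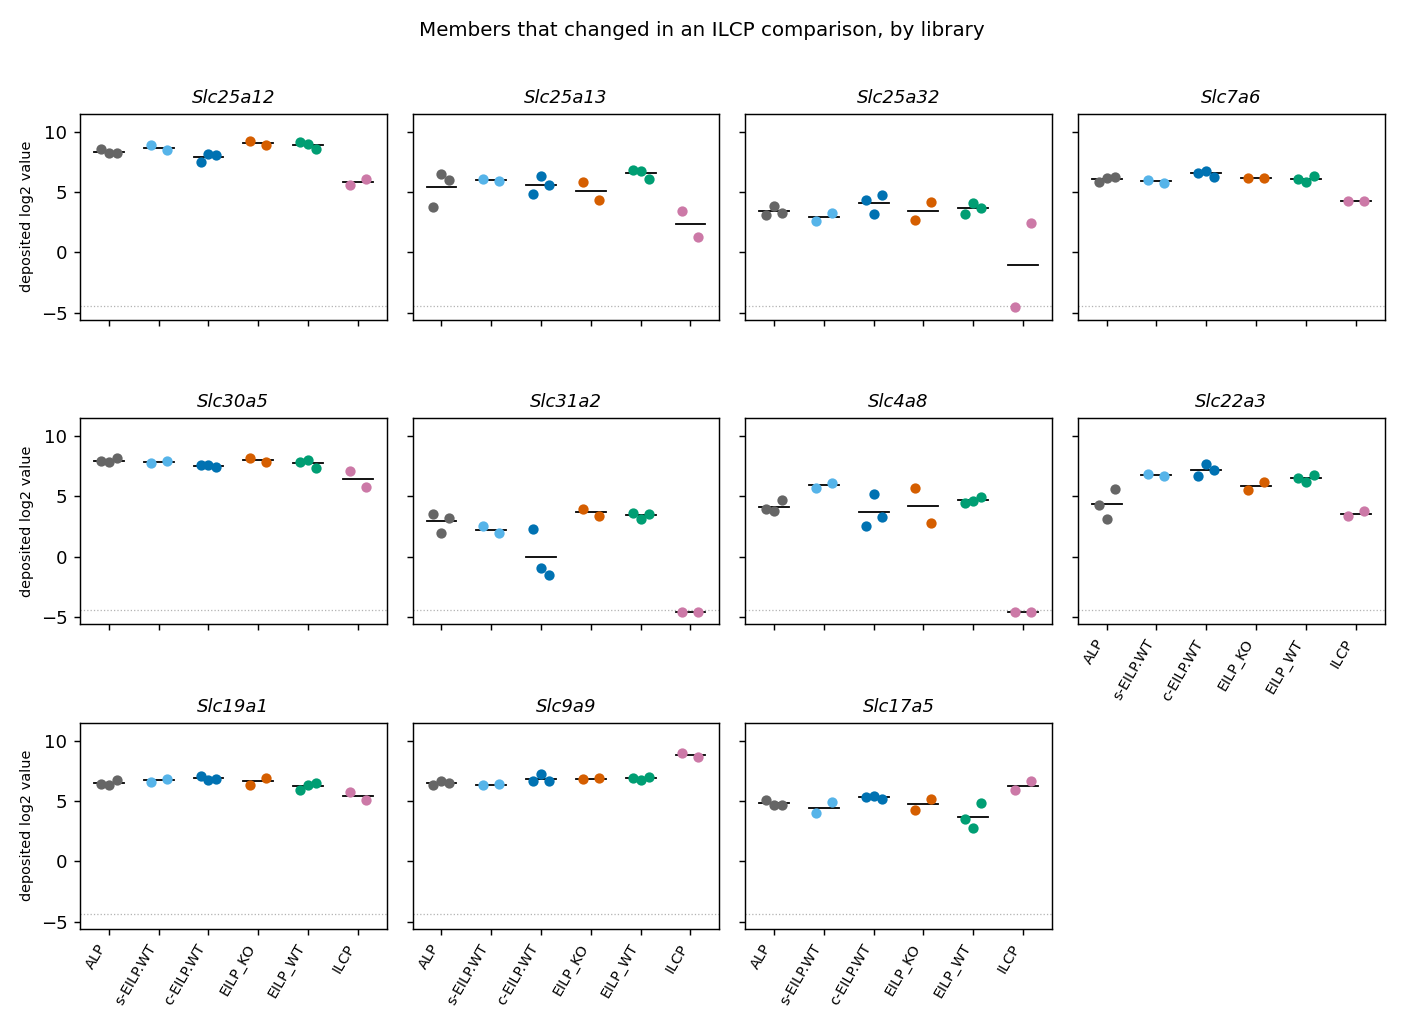
Deposited log2 values (vertical axis) of the 11 members that changed between ILCP and EILP_WT or c-EILP.WT, in the 6 groups; each point is a library, the bar the group mean and the dotted line the highest of the libraries' lowest values. Slc9a9 and Slc17a5 lie higher in ILCP than in EILP_WT, and the other 9 lie lower, with Slc31a2 and Slc4a8 at the lowest value in both ILCP libraries.

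Nucleoside and nucleotide sugar carriers held no change in any comparison. Slc29a1 (ENT1), an equilibrative nucleoside transporter, was at 7.17, 6.96 and 6.17 in EILP_WT, against 7.57, 7.82 and 7.96 in ALP, with no overlap and no call (-1.06, limma adjusted p = 0.133). Slc29a3 (ENT3), its lysosomal relative, was at 4.91 and 4.37 in ILCP, against 6.63, 7.35 and 4.46 in EILP_WT. Slc35a1, which brings CMP-sialic acid to the Golgi, stayed between 4.69 and 6.15 in all 15 libraries.

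No member passed between EILP_KO and EILP_WT by limma. The 10 members at an unadjusted p under 0.05 included Slc25a24, Slc27a4, Slc26a11, Slc41a1, Slc14a1, Slc2a1 and Slc31a1. Slc27a4 (FATP4), a fatty acid importer, was at the lowest value in EILP_KO, against 3.0, 3.69 and 4.09 in EILP_WT (limma adjusted p = 0.214). Slc41a1, a magnesium transporter, was at 4.45 and 3.60 in EILP_KO, against 5.48, 5.0 and 5.98 in EILP_WT (-1.47, adjusted p = 0.47). In the other direction, Slc31a1 was at 7.06 and 6.26 in EILP_KO, against 6.07, 6.07 and 4.72 in EILP_WT (1.11, adjusted p = 0.543). Slc14a1, a urea channel, was at 7.34 and 7.52 in EILP_KO, above every other library, against 6.89, 6.61 and 6.58 in EILP_WT (0.76, adjusted p = 0.487). EILP_KO and EILP_WT did not overlap for 24 members, 14.8% beside 19.2% of all genes tested. The 8 myeloid markers summed to 4277 to 5521 in EILP_KO, against 539 to 4014 in EILP_WT. Mpo, at 11.70 and 11.87 in EILP_KO, made up most of that sum, and EILP_WT replicate 1 also held it at 11.70. Fcgr3 was at the lowest value in EILP_KO replicate 1. The 8 erythroid markers summed to 307 to 478, against 62.3 to 334. Hba-a1, most of the sum in EILP_KO replicate 1 at 7.49, was at 7.79 in EILP_WT replicate 3. In EILP_KO replicate 1, Klf1 and Gfi1b lay below every EILP_WT library. The part of these markers in the members' values was not tested.

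Between c-EILP.WT and s-EILP.WT, which split the EILP gate, the smallest unadjusted p belonged to Slc39a9 (ZIP9), a zinc carrier, at 6.94, 7.36 and 7.52 in c-EILP.WT, against 5.20 and 6.65 in s-EILP.WT (1.23, limma adjusted p = 0.711). Slc8a1 (NCX1), the sodium/calcium exchanger, was at the lowest value in c-EILP.WT, against 1.98 and 3.68 in s-EILP.WT (adjusted p = 0.76). Slc25a12 was at 7.51, 8.16 and 8.06 in c-EILP.WT, against 8.90 and 8.46 in s-EILP.WT (-0.74, adjusted p = 0.787), with no overlap and the same sign as its fall in ILCP. Slc9a9 and Slc7a6 were at slightly higher values in c-EILP.WT (0.51 and 0.65, adjusted p = 0.955 and 0.934).

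ILCP and c-EILP.WT did not overlap for 69 members (42.6%, beside 42% of all genes tested) and ILCP and EILP_WT for 44 (27.2%, beside 32.3%). EILP_WT and ALP did not overlap for 29 (17.9%, beside 19.2%), s-EILP.WT and ALP for 51 (31.5%, beside 29.4%), and c-EILP.WT and s-EILP.WT for 44 (27.2%, beside 25.3%). ILCP stood above all other libraries for 11 members, 6.79% beside 7.57% of all genes, and below all others for 9, 5.56% beside 6.81%. Among the 11, Slc43a2, a large neutral amino acid carrier, was at 7.26 and 7.68 in ILCP, and Slc27a6, a fatty acid importer, at 6.40 and 5.51. ALP stood above all others for 3 members, 1.85% beside 2.56%, and below all others for Slc12a7, a potassium-chloride cotransporter, and Slc18a2, 1.23% beside 1.43%. Of the 3, Slc18a1 (VMAT1), the other vesicular monoamine carrier, was at 6.80, 6.05 and 4.88 in ALP and at 4.34 or less elsewhere, with 9 of the other 12 libraries at the lowest value. The others were Slc25a51, the mitochondrial NAD+ carrier, and Slc27a2, a fatty acid carrier. s-EILP.WT stood above all others for Slc10a3, Slc15a2 and Slc4a8, 1.85% beside 0.557%, and c-EILP.WT below for Slc8a1, 0.617% beside 0.62%. EILP_KO stood above all others for Slc14a1 and Slc16a1, 1.23% beside 1.54%, and below all others for 0 members, beside 1.08%.

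Related genes were read from 2 lists. Of 35 carriers with other symbols 29 were tested, and of 15 partners and regulators all 15 were. By limma neither list held a change in EILP_KO against EILP_WT, in s-EILP.WT against ALP or in c-EILP.WT against s-EILP.WT. In ILCP against EILP_WT 1 of the 29 carriers rose and 4 fell, in a comparison where 6.95% of all genes changed. Slco3a1, an organic anion transporter, was at 7.43 and 7.40 in ILCP, against 5.64, 5.50 and 5.26 in EILP_WT, and rose by 2.05 (adjusted p = 0.0088). Spns2, the sphingosine 1-phosphate exporter, was at 3.07 and the lowest value in ILCP, against 7.31, 6.91 and 5.94 in EILP_WT, and fell by 7.23 (adjusted p = 0.00711). Spns3, Slco4a1 and Unc93b1, the chaperone of endosomal Toll-like receptors, were the other 3 that fell. Of the partners, Myc, a regulator of many nutrient carriers in activated lymphocytes, was at 6.36 and 6.69 in ILCP, against 7.89, 7.90 and 7.60 in EILP_WT, and fell by 1.30 (SE 0.26, adjusted p = 0.0105). Between EILP_WT and ALP, where 3.21% of all genes changed, 2 of the 15 partners rose, Hif1a by 1.01 (adjusted p = 0.00526) and Nptn by 2.01 (adjusted p = 0.0307), and 2 fell, Emb by 1.28 (adjusted p = 0.0172) and Myc by 1.19 (adjusted p = 0.0182).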

How the data were processed

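Per the labels' protocols, a SMARTer kit and Nextera XT gave the libraries. STAR 2.5.2b, RSEM 1.2.23, bcl2fastq 2.17 and limma, and the build mm10, are named in the submitters' processing notes, while the annotation is not given in the sources used here. The authors deposited 1 table of log2 values, whose median and upper quartile are nearly the same in every library, with 12798 genes and 24 nameless empty columns, which were not used. Depth is therefore unknown and no detection limit is given, and a planned pseudocount alternative did not apply.

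Genes at 0 or more in at least 2 libraries were tested, 12572 in all. Using limma 3.58.1 (R 4.3.3), group and batch were modelled as terms, 9 libraries in batch 1 and 6 in batch 2, with s-EILP.WT in batch 1 only. The fit took all 15 libraries and an intensity trend. Adjusted p-values are Benjamini-Hochberg within each comparison. Promoters came from RefSeq on GRCm38.p6 and gene positions from GENCODE on GRCm38, and the annotation matched all 162 members by symbol. Named were the 12 members highest in mean, every changed member, the 12 smallest F p-values, the 4 members on each side of the level rule, members that stood apart in 1 group, and 46 genes with a textbook part in lymphocyte metabolism, of which 41 were members. Members, lists and tests were chosen with earlier results of these data known. Alternatives were no filter, only genes at the level rule, cyclic loess, no batch term, a replicate block, the 2 groups alone, batch 1 alone, other level thresholds and each library left out.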

Additional observations from a re-analysis of the deposited data

How the results depend on the processing

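No result reversed under the alternatives tried. The number of members was 162, and 177 or 144 with a level threshold of 2 or 4. Whether the replicate numbers pair the libraries cannot be told. Over 33 same-numbered pairs the correlation of deviations was -0.073 to 0.049, and over 60 other-numbered pairs it was -0.058 to 0.073. For pairs of the same batch it was also -0.058 to 0.073, so this measure did not pick out the labelled batch either. With the replicate block the changed members were 1 for EILP_WT against ALP, 0 for s-EILP.WT against ALP, 5 for ILCP against EILP_WT, 5 for ILCP against c-EILP.WT and 6 in the F test, against 4, 1, 10, 9 and 13. With the 2 groups compared alone, the 4 pairwise counts above 0 were each 0. Under cyclic loess, which moved each library's median by -0.165 to -0.057, s-EILP.WT against ALP gave 0. Batch 1 alone holds only replicate 1 of ALP, of ILCP and of EILP_KO. Its calls in comparisons with these groups rest on a single library there, so they are no replicated check and are not counted here. Leaving out single libraries gave 1 to 3 for EILP_WT against ALP, 0 to 1 for s-EILP.WT against ALP, 9 to 15 for ILCP against EILP_WT, 6 to 16 for ILCP against c-EILP.WT and 8 to 14 in the F test. The cause was not tested. Of the 24 calls of single members, all 24 were lost with the 2 groups alone and 13 with the replicate block. Under cyclic loess, without the batch term and without the filter, 2 each were lost. Batch 1 alone aside, the calls of Slc25a12, Slc4a8, Slc7a6 and Slc9a9 in ILCP were lost only with the 2 groups alone. EILP_KO against EILP_WT gave 1, Slc1a4, with a level threshold of 2, an alternative chosen after seeing the data, and 0 in the others. Slc1a4 meets that threshold through the EILP_KO libraries, where it is high. c-EILP.WT against s-EILP.WT gave 0 in every alternative. The groups of 2 or 3 libraries limit all comparisons, and a member that did not pass is not shown to be equal between groups.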
